A study of Mus musculus with 10 samples.

Results

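The 46 genes described here encode proteins that copy DNA or divide the cell. They were named by gene symbol, and each was found once among the 24016 transcripts of the deposited table. They comprised 2 transcription factors of the division programme, 8 genes of cyclins, Cdk1 and its activating phosphatase, 11 of origin licensing and the replication fork, and 4 of deoxynucleotide supply. A further 6 encoded mitotic kinases and checkpoint proteins, 2 partners of the anaphase-promoting complex, 6 centromere and spindle proteins, 5 cytokinesis proteins and 2 proteins of chromosome structure. Their RNA was measured by RNA-Seq in the liver of 10 young adult male C57/Bl6 mice after adenoviral gene transfer into the tail vein. The 5 AdVEGF mice received a serotype 5 adenovirus carrying VEGF-A165 under the CMV promoter, which is active in most cell types. The 5 AdCMV mice received the empty adenovirus with the promoter and no transgene, so that virus was present in both groups and no uninfected liver was included. All livers were taken on day 6, and ribosomal RNA was removed from the total RNA before sequencing.

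Cells enter the cycle when D-type cyclins with Cdk4 or Cdk6 release E2F factors, which switch on the genes of DNA replication. Later in the cycle B-Myb, Foxm1 and the MuvB proteins switch on the genes of mitosis, so that replication and mitosis genes follow each other within 1 turn of the cycle. Most cells of the adult liver are at rest, and hepatocytes can copy DNA without completing cytokinesis, which leaves them polyploid.

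These successive programmes are known to act through short promoter elements, and promoters are shown because these elements differ between replication and mitosis genes. RefSeq promoters (GRCm38.p6), running from 250 bases before to 50 bases after the transcription start, were found for 36 of the 46 members, and Ccnd1 was not among them. Both strands were searched for 3 kinds of element. These were the cell cycle homology region (CHR), spelled TTTGAA, the CCAAT box, spelled by its name, and the E2F site, spelled TTTCCCGC, TTTCGCGC, TTTGCCGC or TTTGGCGC. Printed 5' to 3' along the gene are the bases from 220 before to 30 after the start of 5 of the 6 members that rose most, with every match in capitals, and of Mcm6, a replication gene with E2F matches and little difference between the groups, which was chosen after its values were seen.
Anln (chr9:22389177-22389426, minus strand): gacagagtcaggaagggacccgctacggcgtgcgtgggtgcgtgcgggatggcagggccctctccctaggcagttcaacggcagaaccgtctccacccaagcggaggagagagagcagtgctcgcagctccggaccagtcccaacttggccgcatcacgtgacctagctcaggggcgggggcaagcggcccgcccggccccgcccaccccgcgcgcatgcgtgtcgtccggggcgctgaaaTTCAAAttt
Kif23 (chr9:61946770-61947019, minus strand): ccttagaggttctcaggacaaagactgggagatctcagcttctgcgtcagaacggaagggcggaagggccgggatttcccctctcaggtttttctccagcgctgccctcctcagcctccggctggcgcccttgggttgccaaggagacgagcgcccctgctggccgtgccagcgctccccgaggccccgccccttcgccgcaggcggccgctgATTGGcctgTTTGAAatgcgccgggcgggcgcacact
Cenpa (chr5:30666666-30666915, plus strand): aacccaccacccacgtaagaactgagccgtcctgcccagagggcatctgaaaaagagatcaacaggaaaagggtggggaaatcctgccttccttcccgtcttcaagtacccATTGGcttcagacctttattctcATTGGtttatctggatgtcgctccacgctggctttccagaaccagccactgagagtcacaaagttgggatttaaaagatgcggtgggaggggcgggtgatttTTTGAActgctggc
Racgap1 (chr15:99651627-99651876, minus strand): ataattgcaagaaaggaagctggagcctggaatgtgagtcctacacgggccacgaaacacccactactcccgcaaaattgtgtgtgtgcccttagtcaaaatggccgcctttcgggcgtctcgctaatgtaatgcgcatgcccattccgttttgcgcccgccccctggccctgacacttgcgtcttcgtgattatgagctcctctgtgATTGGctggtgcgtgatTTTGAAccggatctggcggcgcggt
Cdc6 (chr11:98907931-98908180, plus strand): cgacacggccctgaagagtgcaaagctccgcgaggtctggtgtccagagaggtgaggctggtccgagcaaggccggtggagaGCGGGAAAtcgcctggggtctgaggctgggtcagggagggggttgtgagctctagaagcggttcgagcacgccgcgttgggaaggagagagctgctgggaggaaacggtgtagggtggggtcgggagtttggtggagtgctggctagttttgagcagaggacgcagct
Mcm6 (chr1:128359676-128359925, minus strand): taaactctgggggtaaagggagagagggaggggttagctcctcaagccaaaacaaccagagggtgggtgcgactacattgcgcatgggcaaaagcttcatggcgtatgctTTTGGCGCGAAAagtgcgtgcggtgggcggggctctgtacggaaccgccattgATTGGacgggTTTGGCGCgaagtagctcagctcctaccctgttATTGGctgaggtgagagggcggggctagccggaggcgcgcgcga
A CHR lay in 18 of the 36 member promoters (50%) and in 18.1% of all 27018 promoters of the same length. It was found in 14 of 18 promoters of mitotic genes and genes of chromosome structure (77.8%), where no E2F match occurred. Among 13 promoters of replication and deoxynucleotide genes, 2 held a CHR (15.4%) and 6 an E2F match (46.2%), beside an E2F match in 2.32% of all promoters. CCAAT boxes lay in 27 of the 36 (75%) and in 37.9% of all promoters. A match is a description of the letters in this window and not a measured binding site. In the Mcm6 promoter, a pair of the 3 E2F matches overlap within 1 run of capitals, and in the Mcm7 promoter 1 match overlaps a match of another element.

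Values are RPKM, the read density per kilobase relative to library size, so levels can be compared between genes. Library sizes were worked out from the steps between low RPKM values. They were 5758960 to 13494000 mapped tags in the AdCMV group and 5596570 to 8133950 in the AdVEGF group. RPKM is a share of the library, and the highly expressed Mup genes, which encode the major urinary proteins of hepatocytes, took 18.0% to 50.5% of the reads in AdCMV mice and 7.84% to 28.6% in AdVEGF mice. The median log2 fold change of the 13933 genes tested was 0.38, and it was -0.01 after median-ratio scaling, which sets the typical gene of each library level. Both scales are therefore given. Hepatocyte markers, led by albumin, summed to 13301 to 20988 RPKM in AdCMV and 28293 to 32947 RPKM in AdVEGF mice.

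A gene was called higher or lower where limma gave an adjusted p below 0.05 and the groups differed by more than 1 on the log2 scale. On the deposited RPKM, 14 of the 46 genes were called higher (30.4%) and none lower, while 13% of all genes tested were called higher and 1.54% lower. The 14 were Foxm1, Ccnd1, Ccnb2, Cdc25c, Cdc6, Bub1, Bub1b, Cenpa, Cenpf, Tpx2, Kif23, Racgap1, Anln and Mki67. Foxm1, Ccne2, Ccna2, Mcm7, Tk1, Cdc20, Nusap1, Tpx2 and Kif20a overlap another transcript of the table, with which they may share reads. All 46 genes passed the filter on low values, their median log2 fold change was 0.85, and 44 of them lay above 0. After median-ratio scaling, 6 were called higher (13%), namely Ccnd1, Cdc6, Cenpa, Kif23, Racgap1 and Anln, and 1 lower (2.17%), Ccne1. The share of all genes was then 7.63% higher and 3.21% lower, and the members' median log2 fold change was 0.45. Without the threshold on fold change, 27 were higher and none lower on the deposited RPKM, where 21.9% of all genes were higher and 2.23% lower. After scaling, 12 were then higher and 1 lower, where 12.6% and 10.5% of all genes were. With voom on the recovered reads, 5 were called higher and 1 lower, beside 8.17% and 3.38% of all genes.

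**Figure D1:**
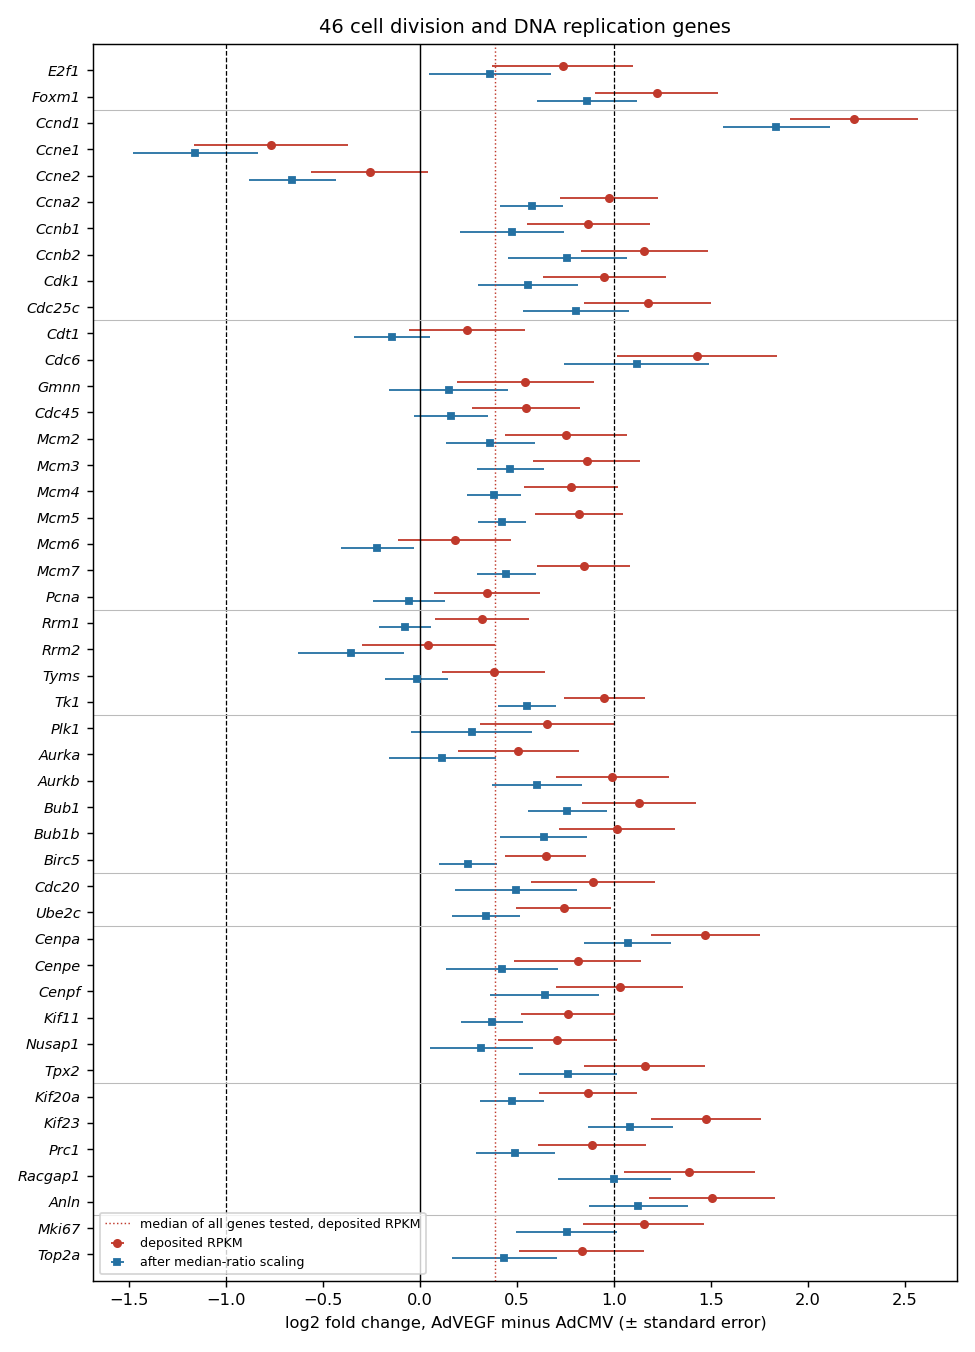
Log2 fold change, AdVEGF minus AdCMV, with its standard error for each of the 46 genes, ordered by role, on the deposited RPKM (circles) and after median-ratio scaling (squares). Ccnd1 stands farthest to the right at 2.24, the cytokinesis genes Anln, Kif23 and Racgap1 lie above 1 on the deposited RPKM, and Ccne1 lies farthest to the left on both scales, at -0.77 and -1.16.

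The number of calls depended on single mice. AdCMV replicate 4, which had the largest Mup share, was the lowest of its group for 41 of the 46 genes, and AdCMV replicate 3, which had the smallest of its group, was the highest for 40. After scaling they were lowest for 32 and highest for 20. Without AdCMV replicate 4, 7 members and 10.2% of all genes were called higher, and without AdCMV replicate 3, 24 members and 17.0% of all genes were. In the AdVEGF group, replicate 4 was the lowest for 29 genes and for 35 after scaling, and 21 members and 12.7% of all genes were called higher without it. Every AdVEGF value lay above every AdCMV value for 8 of the 46 genes (17.4%) and for 14.3% of all genes tested, and the reverse held for none and for 1.29% of all genes. After scaling, 4 genes (8.70%), Ccnd1, Kif23, Mcm4 and Mcm5, were separated in this way and 10.5% of all genes, and the reverse held for none and for 7.27%. Since whole liver was sequenced, more dividing cells and more RNA per dividing cell, or fewer cells of a type and less RNA per cell, cannot be told apart.

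The largest difference was in Ccnd1, which encodes cyclin D1, the cyclin that carries resting cells, hepatocytes included, into the cycle (mm9, chr7:152115836-152125830, minus strand). Its RPKM was 13.1, 13.8, 32.2, 13.5 and 25.3 in AdCMV replicates 1 to 5 and 77.9, 139, 152, 55.1 and 52 in AdVEGF replicates 1 to 5. The lowest AdVEGF mouse was above the highest AdCMV mouse, and within the AdVEGF group replicates 2 and 3 stood well above the other 3. The means were 19.6 ± 8.71 and 95.2 ± 47.2 RPKM (SD, n = 5), and the log2 fold change was 2.24 (SE 0.33, adjusted p = 9.5e-05), or 4.71-fold. It was 1.83 after scaling (SE 0.28, adjusted p = 0.000398). Ccnd1 had the highest level of the 46 genes in the AdVEGF group, whereas Pcna and Ube2c were above it in the AdCMV group. It was also the only gene of the 46 (2.17%) called by treat, limma's test that the difference itself exceeds 1 on the log2 scale. Of all genes, treat called 3.61% higher, so the share of members was below that of all genes.

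Ccne1, cyclin E1, which with Cdk2 drives the start of DNA replication (mm9, chr7:38883003-38892509, minus strand), did not follow. Its RPKM was 3.13, 5.88, 12.9, 2.08 and 5.54 in the AdCMV mice and 4.22, 3.47, 2.58, 3.42 and 1.38 in the AdVEGF mice. The groups overlapped, and AdCMV replicate 3 alone was above 6 RPKM. On the deposited RPKM the log2 fold change was -0.77 (SE 0.40, adjusted p = 0.162) and it was -0.42 without that mouse. After scaling, Ccne1 fell, with a log2 fold change of -1.16 (SE 0.32, adjusted p = 0.0214). The second cyclin E gene, Ccne2, had a log2 fold change of -0.26 (adjusted p = 0.537) and -0.66 after scaling (adjusted p = 0.0521). AdCMV replicate 3 was again high, at 21.4 RPKM beside 5.88 to 9.96 RPKM in the other AdCMV mice and 4.79 to 11 RPKM in the AdVEGF mice. The ratio of Ccnd1 to Ccne1 within a mouse, which no scaling of libraries can change and which was chosen after the values were seen, was 2.34 to 6.52 in AdCMV mice and 16.1 to 58.9 in AdVEGF mice.

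Of the cyclins of later phases, Ccnb2, a cyclin B that activates Cdk1 at the entry into mitosis, rose on the deposited RPKM with a log2 fold change of 1.16 (adjusted p = 0.0174). Its RPKM was 3.33 to 8.21 in AdCMV and 5.22 to 18 in AdVEGF mice, and the groups overlapped through AdVEGF replicate 4 alone. Ccna2, cyclin A2, which serves both replication and mitosis, had a log2 fold change of 0.97 (adjusted p = 0.01) and 0.57 after scaling (adjusted p = 0.0228), past the threshold on p and below that on fold. Ccnb1 and Cdk1 had log2 fold changes of 0.87 (adjusted p = 0.0566) and 0.95 (adjusted p = 0.0368). Cdc25c, the phosphatase that activates Cdk1, rose on the deposited RPKM by 1.17 on the log2 scale (adjusted p = 0.0157), from 0.496 to 1.32 RPKM in AdCMV to 1.6 to 3.61 RPKM in AdVEGF mice. These are low levels, with 9 to 33 reads behind each AdCMV value and 20 to 50 behind each AdVEGF value, and the call was lost without AdCMV replicate 4 or AdVEGF replicate 1 or 2.

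Foxm1, a transcription factor of mitosis genes, was at 0.761, 0.885, 1.17, 0.39 and 1.16 RPKM in the AdCMV mice and at 2.45, 2.01, 2.3, 1.19 and 2.63 RPKM in the AdVEGF mice. On the deposited RPKM the groups touched without overlapping, AdVEGF replicate 4 lying just above AdCMV replicates 3 and 5, and after scaling they overlapped. The log2 fold change was 1.22 (SE 0.32, adjusted p = 0.0103) and 0.86 after scaling (adjusted p = 0.0297). The transcript that overlaps Foxm1 lies on the same strand. E2f1, an activator of replication genes, had a log2 fold change of 0.74 (adjusted p = 0.145), with 0.75 to 3.36 RPKM in AdCMV and 1.97 to 4.26 RPKM in AdVEGF mice.

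**Figure D2:**
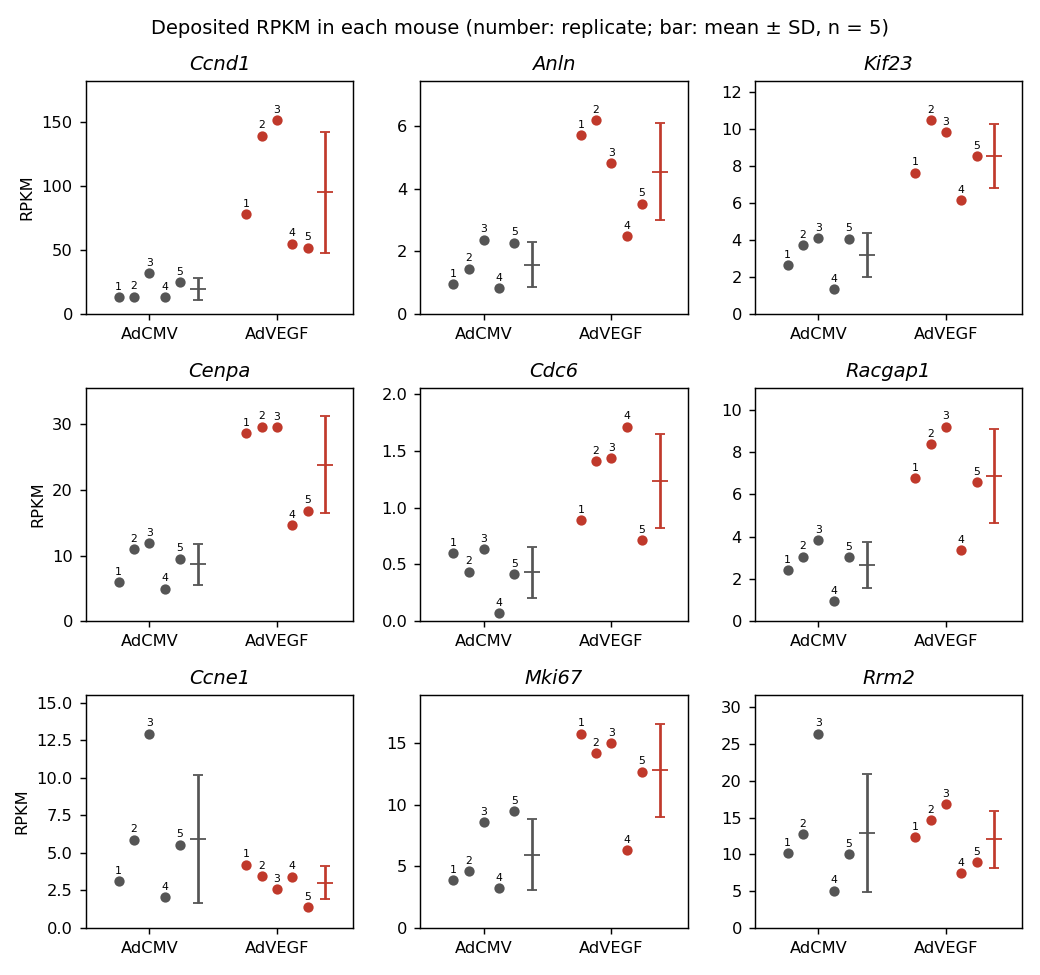
RPKM of 9 genes in each mouse, AdCMV in grey and AdVEGF in red, with the replicate number at each point and the mean ± SD (n = 5) as a bar. On the deposited RPKM shown, Ccnd1, Anln, Kif23, Cenpa and Cdc6 separate the groups, and after scaling only Ccnd1 and Kif23 of these do. AdVEGF replicate 4 is low for Racgap1 and Mki67, and Ccne1 and Rrm2 overlap with AdCMV replicate 3 on top.

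Among the 11 genes of origin licensing and the replication fork only Cdc6 was called on either scale. Cdc6 loads the Mcm helicase onto origins of replication. It was at 0.601, 0.436, 0.635, 0.069 and 0.416 RPKM in the AdCMV mice and at 0.891, 1.41, 1.44, 1.71 and 0.712 RPKM in the AdVEGF mice, with an overlap only after scaling. It was the member with the lowest level, with 3 to 27 reads behind the AdCMV values and 22 to 64 behind the AdVEGF values. Its mean was 0.43 RPKM in AdCMV and 1.23 RPKM in AdVEGF mice, so that it passed the filter at 0.5 RPKM through AdVEGF alone. Its log2 fold change was 1.43 (SE 0.41, adjusted p = 0.0198) and 1.12 after scaling (adjusted p = 0.0481). Leaving out AdVEGF replicate 3 or 4 ended the call. For Cdc6, as for Cdt1, Mcm4 and Mcm5, AdVEGF replicate 4 was the highest of its group.

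The subunits of the Mcm2-7 helicase, which unwinds DNA ahead of the fork, did not differ to the same extent. Mcm2, Mcm3, Mcm4, Mcm5 and Mcm7 had log2 fold changes of 0.75, 0.86, 0.78, 0.82 and 0.84, whereas that of Mcm6 was 0.18 (SE 0.29, adjusted p = 0.669). Adjusted p was under 0.05 for Mcm3, Mcm4, Mcm5 and Mcm7, and after scaling for Mcm5 alone, with a log2 fold change of 0.42 (adjusted p = 0.0269). Mcm5 was at 5.4, 7.01, 11.9, 5.76 and 8.52 RPKM in the AdCMV mice and at 12.7, 12.3, 14.8, 16 and 10.5 RPKM in the AdVEGF mice. Only AdVEGF replicate 5 fell within the AdCMV range, below AdCMV replicate 3, and after scaling the groups did not overlap. Mcm6 was at 9.01, 12.9, 26.6, 6.62 and 14.3 RPKM in the AdCMV mice and at 13.7, 12.8, 18, 14.9 and 11.6 RPKM in the AdVEGF mice, where the whole AdVEGF range lay inside the AdCMV range. The difference between subunits was not tested.

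Licensing is held back by geminin, encoded by Gmnn, which binds Cdt1. Gmnn and Cdt1 had log2 fold changes of 0.54 (adjusted p = 0.261) and 0.24 (adjusted p = 0.562), and Cdc45, which joins the helicase at firing origins, one of 0.54 (adjusted p = 0.159). The sliding clamp Pcna, the most abundant replication gene, was at 19.1 to 70.9 RPKM in AdCMV and 37.5 to 57 RPKM in AdVEGF mice, with a log2 fold change of 0.34 (adjusted p = 0.361). Cdt1, Mcm6 and Pcna had small negative log2 fold changes after scaling, of -0.15, -0.22 and -0.06.

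Of the 4 genes that supply deoxynucleotides none was called. The ribonucleotide reductase subunits Rrm1 and Rrm2 had log2 fold changes of 0.32 (adjusted p = 0.338) and 0.04 (adjusted p = 0.936), and thymidylate synthase, Tyms, one of 0.38 (adjusted p = 0.303). After scaling these were -0.08, -0.36 and -0.02. Rrm2 ranged from 5.09 to 26.5 RPKM in AdCMV mice, with AdCMV replicate 3 on top, and from 7.43 to 16.8 RPKM in AdVEGF mice. Tk1, the thymidine kinase of the salvage route, stood apart from them. It was at 7.27, 10.1, 9.45, 5.35 and 10.2 RPKM in the AdCMV mice and at 16.9, 15.1, 18.1, 14.1 and 16.2 RPKM in the AdVEGF mice, with an overlap only after scaling. Its log2 fold change was 0.95 (SE 0.21, adjusted p = 0.00326) and 0.55 after scaling (adjusted p = 0.0187), past the threshold on p and just below that on fold.

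Of the 6 mitotic kinase and checkpoint genes, Bub1 and Bub1b rose on the deposited RPKM. Both encode checkpoint proteins that hold anaphase until chromosomes are attached. Bub1 was at 0.64 to 1.47 RPKM in AdCMV and 1.43 to 2.69 RPKM in AdVEGF mice, with a log2 fold change of 1.13 (adjusted p = 0.0104) and 0.76 after scaling (adjusted p = 0.0172). Bub1b had a log2 fold change of 1.01 (adjusted p = 0.0216), just past the threshold, and lost the call without AdCMV replicate 1 or 4 or AdVEGF replicate 1 or 3. Aurkb and Birc5, both of the chromosomal passenger complex, had log2 fold changes of 0.99 (adjusted p = 0.0205) and 0.65 (adjusted p = 0.0312). Plk1 and Aurka, kinases of the spindle poles and mitotic entry, had log2 fold changes of 0.65 (adjusted p = 0.169) and 0.51 (adjusted p = 0.235). The 2 partners of the anaphase-promoting complex, the activator Cdc20 and the ubiquitin-conjugating enzyme Ube2c, had log2 fold changes of 0.89 (adjusted p = 0.0522) and 0.74 (adjusted p = 0.0367).

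Cenpa, the histone H3 variant that marks centromeres, had the clearest rise among the centromere and spindle genes. It was at 5.92, 11, 11.9, 4.94 and 9.53 RPKM in the AdCMV mice and at 28.6, 29.7, 29.6, 14.7 and 16.9 RPKM in the AdVEGF mice. On the deposited RPKM the groups did not overlap, and AdVEGF replicates 1 to 3 lay close together above replicates 4 and 5. After scaling, AdCMV replicate 2, at 13.8, was above AdVEGF replicate 4, at 12.4. The means were 8.67 ± 3.1 and 23.9 ± 7.45 RPKM (SD, n = 5), a log2 fold change of 1.47 (SE 0.28, adjusted p = 0.00105) and of 1.07 after scaling (adjusted p = 0.0041). Tpx2, which activates Aurora A on the spindle, and Cenpf, a kinetochore protein, rose on the deposited RPKM by 1.16 (adjusted p = 0.0128) and 1.03 (adjusted p = 0.0302) on the log2 scale, and the call of Cenpf was lost under 14 of 23 alternatives, among them the omission of AdCMV replicate 1, 2 or 4 or AdVEGF replicate 1, 2 or 3. The motor genes Cenpe and Kif11 and the spindle protein gene Nusap1 had log2 fold changes of 0.81 (adjusted p = 0.0809), 0.76 (adjusted p = 0.0304) and 0.71 (adjusted p = 0.102).

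Of the 5 cytokinesis genes 3 rose on both scales. Anln, which encodes anillin, the scaffold of the contractile ring, was at 0.973, 1.46, 2.38, 0.826 and 2.29 RPKM in the AdCMV mice and at 5.71, 6.19, 4.8, 2.48 and 3.52 RPKM in the AdVEGF mice. AdVEGF replicate 4 lay just above AdCMV replicate 3 and, after scaling, below AdCMV replicate 5. The other AdVEGF mice were well apart from the AdCMV mice. Anln thus rose, with a log2 fold change of 1.50 (SE 0.32, adjusted p = 0.00267) and of 1.12 after scaling (adjusted p = 0.00659). Kif23 and Racgap1 encode the motor and its partner that together form centralspindlin, which places the contractile ring. Kif23 was at 2.64, 3.73, 4.11, 1.34 and 4.09 RPKM in the AdCMV mice and at 7.64, 10.5, 9.83, 6.18 and 8.52 RPKM in the AdVEGF mice, with a gap between the groups that remained after scaling. Its log2 fold change was 1.47 (SE 0.28, adjusted p = 0.00107) and 1.08 after scaling (adjusted p = 0.00314).

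Racgap1 was at 2.42, 3.05, 3.83, 0.946 and 3.04 RPKM in the AdCMV mice and at 6.78, 8.36, 9.2, 3.38 and 6.58 RPKM in the AdVEGF mice. AdVEGF replicate 4 fell among the AdCMV mice, and the other 4 were above all of them. The log2 fold change was 1.39 (SE 0.34, adjusted p = 0.0068) and 1.00 after scaling (adjusted p = 0.0264), which lies at the threshold on fold. The midzone bundling protein gene Prc1 and the motor gene Kif20a had log2 fold changes of 0.89 (adjusted p = 0.0286) and 0.87 (adjusted p = 0.0198). Promoters of 4 cytokinesis genes were found and each holds a CHR, 3 of which are printed above.

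Mki67, the Ki-67 gene widely used to mark cycling cells, was at 3.9, 4.61, 8.55, 3.24 and 9.46 RPKM in the AdCMV mice and at 15.8, 14.2, 15, 6.33 and 12.7 RPKM in the AdVEGF mice. AdVEGF replicate 4 was below AdCMV replicates 3 and 5. The log2 fold change was 1.15 (SE 0.31, adjusted p = 0.0139) and 0.76 after scaling (adjusted p = 0.0546), so that the call was lost with scaling. Top2a, the topoisomerase that untangles sister chromosomes, had a log2 fold change of 0.83 (adjusted p = 0.0679), with 7.07 to 21.3 RPKM in AdCMV and 10.3 to 33 RPKM in AdVEGF mice.

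Set side by side, 8 of the 19 genes of mitosis and cytokinesis and 1 of the 15 genes of replication and deoxynucleotide supply were called higher on the deposited RPKM (42.1% and 6.67%, beside 13% of all genes), and 4 and 1 after scaling (21.1% and 6.67%, beside 7.63%). After scaling, all 19 mitosis genes had a log2 fold change above 0, with a median of 0.49, and 9 of the 15 replication genes did, with a median of 0.16. The ratio of their summed RPKM within a mouse does not depend on the scaling between libraries. It was 0.659, 0.781, 0.592, 0.883 and 0.834 in the AdCMV mice and 1.04, 1.22, 1.08, 0.703 and 1.07 in the AdVEGF mice. Of the AdVEGF mice 4 were above the whole AdCMV group, and replicate 4 lay within it. With each gene given equal weight, as the mean log2(RPKM + 0.1) of the mitosis genes minus that of the replication genes, AdVEGF replicate 4 was at -1.004, below the AdCMV range of -0.92 to -0.42, and the other AdVEGF mice were at -0.17 to -0.03. The scaled sums of the mitosis genes ranged from 95.0 to 137 in AdCMV mice and were 172, 209, 192, 102 and 161 in the AdVEGF mice, where the replication genes ranged from 108 to 196 and from 145 to 179. This split was described after the values were seen and carries no test.

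**Figure D3:**
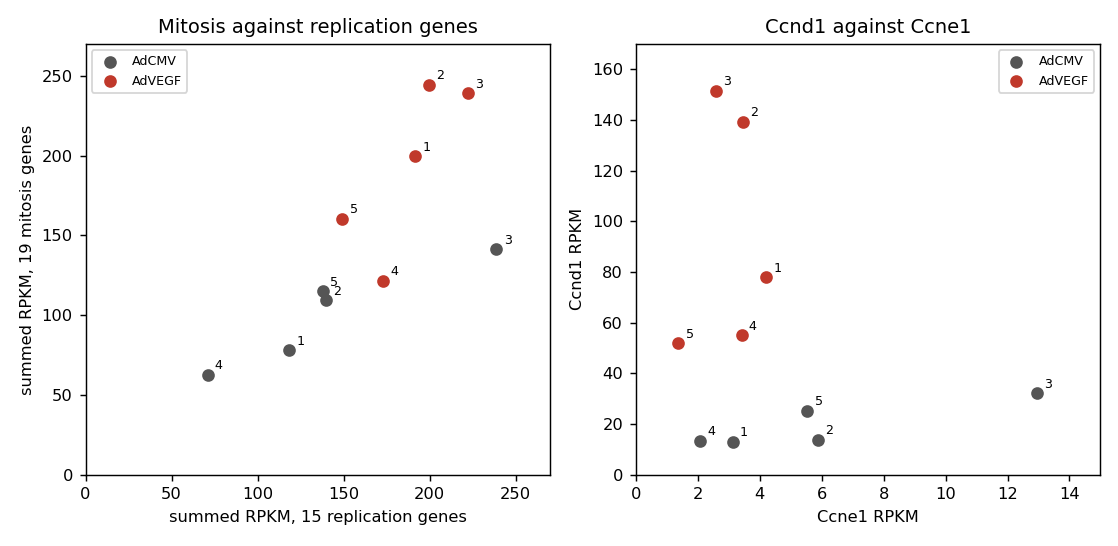
Left, summed RPKM of the 19 mitosis genes against that of the 15 replication genes in each mouse, with the replicate number beside each point. Right, RPKM of Ccnd1 against Ccne1. On the left, the AdVEGF mice except replicate 4 have a mitosis sum above every AdCMV mouse. Few AdVEGF mice have an AdCMV mouse at a like replication sum. On the right, all 5 AdVEGF mice lie above the AdCMV mice for Ccnd1.

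AdVEGF replicate 4 differed in other ways. Its neutrophil marker sum of 209 RPKM was above the 16.5 to 99.7 RPKM of the AdCMV mice and the 17.5 to 57.5 RPKM of the other AdVEGF mice. Its erythroid marker sum, nearly all of it haemoglobin RNA, was 1820 RPKM, beside 739 to 1636 RPKM in AdCMV and 507 to 1172 RPKM in the other AdVEGF mice. After scaling, AdCMV replicates 1 and 2 were above it, and Alas2, another gene of the erythroid list, was at its lowest of the 10 mice in AdVEGF replicate 4. Across the groups, all 14 endothelial markers were called higher on both scales, and they summed to 43.3 to 85.4 RPKM in AdCMV and 394 to 477 RPKM in AdVEGF mice. It was 477 RPKM in AdVEGF replicate 4, the highest of its group. The Kupffer cell marker sum was 199, 194, 183, 132 and 141 RPKM in AdVEGF replicates 1 to 5, beside 57.8 to 143 RPKM in AdCMV mice. Cd5l alone gave 83.1 RPKM of the sum in AdVEGF replicate 4. The markers differed in that mouse, where Clec4f was at its lowest of the group (5.66 RPKM) and Marco at its highest (14.3 RPKM). Stellate cell markers were called higher for 6 of 7 genes on both scales, and Kupffer cell markers for 3 of 8 on the deposited RPKM and 2 after scaling. B cell markers were called higher for 3 of 5 and 1 of 5, neutrophil markers for 5 of 8 and 2 of 7, erythroid markers for 1 of 7 and cholangiocyte markers for 1 of 4, Spp1. Hepatocyte markers were called higher for 3 of 10 on the deposited RPKM and for none after scaling, and T and NK cell markers were called lower for 5 of 9 and 7 of 9. Which cells the division genes came from was not tested.

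Further genes of the same pathways, from lists drawn up by function, were examined in the same fit. Among 38 other mitosis genes, 16 were called higher (42.1%, beside 13% of all genes) and none lower, with a median log2 fold change of 0.93. After scaling 2 were called higher (5.26%, below the 7.63% of all genes), and the median was 0.54. Those with the largest change were Cit, the citron kinase of the cleavage furrow (1.68, adjusted p = 0.0115), Kif18b, a microtubule motor (1.45, adjusted p = 0.00448), Cep55, of abscission (1.35, adjusted p = 0.0044), and Kif22, a chromosome motor (1.34, adjusted p = 0.00367). Cit and Kif18b were the 2 called after scaling. Cit rested on 2 to 22 reads in AdCMV and 26 to 41 in AdVEGF mice, Kif18b on 7 to 29 and 28 to 43. Cit passed the filter at 0.5 RPKM through the AdVEGF mice alone, and was not tested where the filter used the mean of all mice. Leaving out AdCMV replicate 1 or 4 or AdVEGF replicate 2 or 3 gave 8 or 9 calls in place of 16. Of all genes, 10.2% to 12.0% were then called higher.

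Of 42 other replication genes, 5 were called higher (11.9%, below the 13% of all genes) and none lower, with a median log2 fold change of 0.45, close to the 0.38 of all genes. Cdc7, the kinase that fires licensed origins, changed most, with a log2 fold change of 1.68 (adjusted p = 0.00364), and was the 1 called after scaling (2.38%, beside 7.63% of all genes). It was at 0.145 to 0.444 RPKM in AdCMV and 0.685 to 1.46 RPKM in AdVEGF mice, from 3 to 10 and 11 to 34 reads. It thus passed the filter at 0.5 RPKM through the AdVEGF mice alone. Uhrf1, which maintains DNA methylation behind the fork, Clspn, of the replication checkpoint, and Pold1, the catalytic subunit of polymerase delta, followed with log2 fold changes of 1.28 (adjusted p = 0.00886), 1.21 (adjusted p = 0.0139) and 1.14 (adjusted p = 0.00597). Without AdCMV replicate 3, 11 of the 42 and 17.0% of all genes were called higher. Without AdCMV replicate 4, 2 of the 42 and 10.2% of all genes were.

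Of 21 regulators of G1 and E2F, Cdk4, the kinase partner of cyclin D1, and Mybl2, which encodes B-Myb, were called higher (9.52%, below the 13% of all genes), and Mybl2 after scaling (4.76%, beside 7.63%). Cdk4 was at 11.4 to 24.6 RPKM in AdCMV and 25.8 to 40.9 RPKM in AdVEGF mice, without overlap, with a log2 fold change of 1.17 (adjusted p = 0.000808) and 0.77 after scaling (adjusted p = 0.000488). Mybl2 was at 0.23 to 0.342 RPKM in AdCMV and 0.435 to 1.45 RPKM in AdVEGF mice, from 6 to 17 and 9 to 33 reads. Mybl2 thus passed the filter at 0.5 RPKM through the AdVEGF mice alone. Its log2 fold change was 1.39 (adjusted p = 0.00984) and 1.06 after scaling (adjusted p = 0.0286).

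Genes that restrain the cycle were also among those called higher, 4 of 24 on the deposited RPKM (16.7%, beside 13% of all genes) and 3 after scaling (12.5%, beside 7.63%). Their median log2 fold change of 0.40 was close to the 0.38 of all genes. Cdkn2a and Cdkn2b, inhibitors of the D-type cyclin kinases, had log2 fold changes of 2.62 (adjusted p = 0.0067) and 2.24 (adjusted p = 0.00214). Their levels were low, with 0 to 6 reads of Cdkn2a in AdCMV and 2 to 18 in AdVEGF mice, and 0 to 8 and 6 to 20 reads of Cdkn2b. E2f7, an atypical E2F that represses E2F targets and favours polyploidy in hepatocytes, had a log2 fold change of 1.89 (adjusted p = 0.00595), with 0.019 to 0.744 RPKM in AdCMV and 0.833 to 1.44 RPKM in AdVEGF mice, from 1 to 32 and 37 to 49 reads. Cdkn2d, another inhibitor of Cdk4, rose on the deposited RPKM by 1.16 on the log2 scale (adjusted p = 0.0043) and lost the call with scaling.

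Cdkn1a, the p21 inhibitor induced by p53, was at 15, 18.7, 28, 18.2 and 17 RPKM in the AdCMV mice and at 14, 18.6, 17.4, 15.5 and 12.2 RPKM in the AdVEGF mice. The log2 fold change was -0.30 (adjusted p = 0.29) on the deposited RPKM and -0.70 after scaling (adjusted p = 0.0036), which is past the threshold on p and not on fold. Cdkn1b (p27) and Cdkn1c (p57) had log2 fold changes of 0.33 (adjusted p = 0.183) and 0.77 (adjusted p = 0.0948). Gadd45b, a stress-induced gene, was the 1 brake called lower after scaling and was not called on the deposited RPKM, with a log2 fold change of -1.05 (adjusted p = 0.00958), and was named after its values were seen.

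Of 67 histone cluster genes tested, 18 were called higher (26.9%, beside 13% of all genes) and none lower. Their median log2 fold change was 1.04 on the deposited RPKM and 0.64 after scaling, where 2 were called (2.99%, below the 7.63% of all genes). These were Hist1h2ap and Hist1h2ao, each with a log2 fold change of 1.50 on the deposited RPKM and 1.10 after scaling. Histone genes of the clusters are near-identical copies, and these 2 rows overlap, so that the number of genes is uncertain. The RNA had not been selected for poly(A) tails, which most histone messages lack. On neither scale did any of the 68 listed histone genes have every AdVEGF value above every AdCMV value, beside 14.3% and 10.5% of all genes tested. Without AdVEGF replicate 4, 59 histone genes and 12.7% of all genes were called higher, and without AdCMV replicate 5, 58 and 14.7% were.

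**Figure D4:**
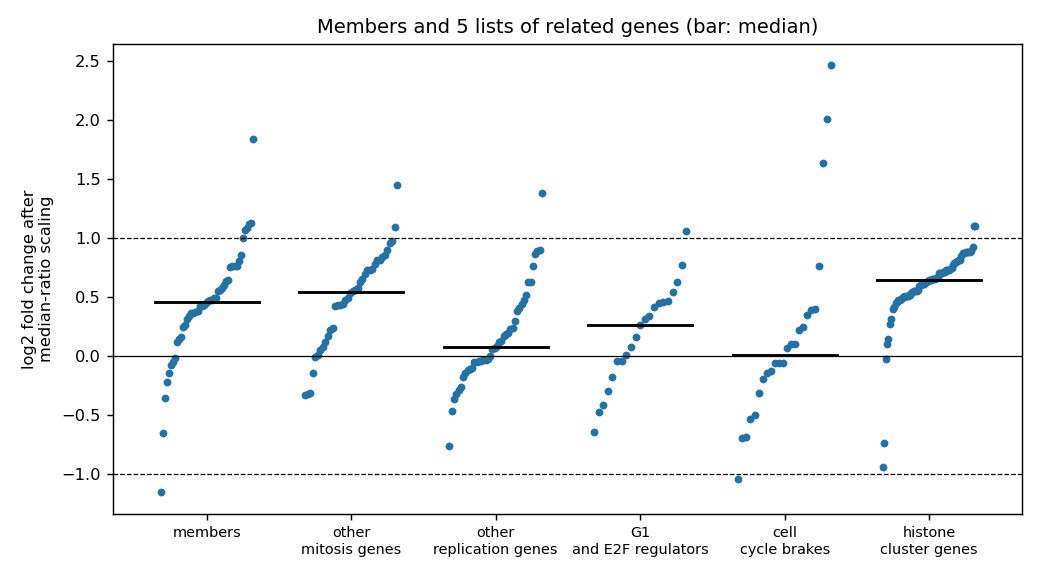
Log2 fold change after median-ratio scaling of the 46 members and of the genes in 5 lists of related genes, each point 1 gene, in ascending order within a list, with the median as a bar and dashed lines at the thresholds on fold. The medians of the members, the other mitosis genes and the histone genes lie at 0.45, 0.54 and 0.64, and those of the other replication genes and the brakes at 0.07 and 0.00.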

How the data were processed

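Total liver RNA depleted of ribosomal RNA was sequenced from 10 mice, grouped by their labels. The authors mapped reads with TopHat, and deposited RPKM per RefSeq transcript, with no scaling between libraries beyond library size. The submitters' processing notes also name HOMER and mm9. Strand of counting was not given in the sources used here, and 9 of the 46 members overlap another row. The deposited fold changes and FDR were not used.

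RPKM of genes with a mean over 0.5 in at least 1 group were compared as log2(RPKM + 0.1) with limma (3.58.1, R 4.3.3, eBayes with trend). Benjamini-Hochberg adjustment was over all genes tested. The added 0.1 understates changes of low genes. The mice are biological replicates by their labels. Members, lists, thresholds and tests were chosen with earlier results of these data known. Named genes were all members, up to 4 called genes per list by fold change, and Cdkn1a, Cdkn1b and Cdkn1c; Gadd45b was added after its values were seen. Reads recovered from the RPKM steps (99.946% to 100% of values whole within 0.1 read) were tested with voom. Statistics were tested on simulated data, in which the mice of a group had the same expected levels and libraries did not differ in composition. That test therefore cannot show how the calls behave with unequal Mup shares. Replicate numbers did not pair the mice.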

Additional observations from a re-analysis of the deposited data

Results flagged for a closer look

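Of 92 groups of member values (46 genes in 2 groups of 5 mice), 2 held a mouse standing farther from the others than a limit that chance passes in about 1 in 20 groups. Ccne2 was at 21.4 RPKM in AdCMV replicate 3, where the next mouse of the group was at 9.96 RPKM, and Mcm7 was at 15.9 RPKM in the same mouse, where the next was at 9.40 RPKM. That mouse had the smallest Mup share of its group. A share of 2 in 92 is below 1 in 20, and no cause was tested.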

How the results depend on the processing

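Of the 46 genes, Ccnd1 was called under all 23 alternatives, and Cenpa, Kif23 and Anln under all but treat. Racgap1 lost its call in 3 (library total without Mup genes, treat, voom) and Cdc6 in 5, while Cenpf lost it in 14, Bub1b in 11 and Cdc25c in 10. Without AdCMV replicate 4 the calls of Foxm1, Tpx2, Mki67 and Ccnb2 were also lost, that of Ccnb2 without AdCMV replicate 1 too. In brackets is the share of all genes called higher under the same setting, which was 13% on the deposited RPKM. Against 14 members called higher, the number was 6 with median-ratio (7.63%) and with upper quartile scaling (8.26%). It was 4 with library totals without the Mup genes (7.47%), 7 with a pseudocount of 1 (6.85%) and 27 with the adjusted p alone (21.9%). It was 1 with treat (3.61%) and 5 with voom on the recovered reads (8.17%). It ran from 7 to 24 when 1 mouse was left out, lowest without AdCMV replicate 4 (10.2%) and highest without AdCMV replicate 3 (17.0%). The 1 member called lower under the 3 scalings, voom, and median-ratio scaling with the adjusted p alone (added after seeing the data) was Ccne1. The members' median log2 fold change stayed between 0.68 and 1.01 over the left-out mice.

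Other mitosis genes called higher, 16, became 2, 4 and 2 under the 3 scalings, 2 with a pseudocount of 1, 0 with treat, 2 with voom, 9 with median-ratio scaling and the adjusted p alone, and 8 to 24 with 1 mouse left out. Other replication genes, 5, became 1 under each scaling and voom, 0 with a pseudocount of 1 and with treat, 10 with the adjusted p alone and 2 to 11 with 1 mouse left out, and 1 was lower with median-ratio scaling and the adjusted p alone. G1 and E2F regulators, 2, became 1 under each scaling, voom, a pseudocount of 1 and a filter at 1 RPKM, 0 with treat, 7 with the adjusted p alone and 2 to 3 with 1 mouse left out, and 1 was lower with median-ratio scaling and the adjusted p alone. Brakes, 4, became 1 with a pseudocount of 1, 0 with treat and 3 to 4 with 1 mouse left out, and 1 was lower with median-ratio scaling, totals without Mup genes and voom, and 3 with median-ratio scaling and the adjusted p alone. Histone genes, 18, became 2 under each scaling and voom, 0 with treat and 15 to 59 with 1 mouse left out. The shares of all genes called higher were those in brackets above. They were 12.6% with median-ratio scaling and the adjusted p alone and 12.5% with a filter at 1 RPKM. Of all genes, 3.21% were lower with median-ratio scaling, 3.38% with voom and 10.5% with median-ratio scaling and the adjusted p alone. With totals without Mup genes, 451 of 13841 were lower.

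Directions turned for 7 members whose log2 fold change was small. Under median-ratio scaling, upper quartile scaling, totals without Mup genes and voom, Cdt1 was at -0.15, -0.072, -0.16 and -0.20, Mcm6 at -0.22, -0.15, -0.23 and -0.23, Rrm1 at -0.078, -0.00307, -0.090 and -0.077, and Rrm2 at -0.36, -0.28, -0.37 and -0.39. Under these but upper quartile scaling, Pcna was at -0.057, -0.069 and -0.052 and Tyms at -0.019, -0.030 and -0.017. With 1 mouse left out, Mcm6 ran from -0.046 (without AdCMV replicate 4) to 0.45, Rrm2 from -0.24 (without AdCMV replicate 4) to 0.35, being below 0 also without AdVEGF replicate 2 or 3, and Ccne2 from -0.44 to 0.020 (without AdCMV replicate 3).

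Replicate numbers did not pair the mice: deviations of same-numbered mice correlated at 0.0076 to 0.291, and not every mouse correlated best with its own number. With the replicate number as a block, 14 members were higher and 0 lower, and 40 histone genes were higher in place of 18. Of all genes, 13.9% were then higher in place of 13%. Depth limits Cdc6, Cdc25c, Cdc7, Cit, Kif18b, Mybl2, E2f7, Cdkn2a and Cdkn2b, where single AdCMV mice had 10 reads or fewer.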
